A study of Mus musculus with 6 samples.

Results

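Sugars, lactate and urate are filtered at the glomerulus and taken back along the kidney tubule by membrane carriers, and 10 genes for such carriers were examined here in kidneys of wild-type (WT) mice and of mice lacking Selenbp1 (Selenbp1-KO), the gene for selenium-binding protein 1. The 10 were chosen by name: the sodium-coupled carriers Slc5a1, Slc5a2, Slc5a8, Slc5a10 and Slc5a12 and the facilitative carriers Slc2a1, Slc2a2, Slc2a3, Slc2a5 and Slc2a9. They were read by 14 probes of the 56605 non-control probes on the array, and by 10 of its 37074 gene names. Left kidneys came from male mice aged 8 weeks after a 20 h fast, each on 1 one-color microarray. There were 3 WT animals of the C57BL/6J strain (replicates 2, 3 and 4) and 3 Selenbp1-KO animals (replicates 1, 2 and 3). The sources used here do not give how the gene was inactivated, nor whether the WT animals, which came from a commercial breeder, were related to the knockouts.

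In the proximal tubule, sodium-glucose cotransporters of the Slc5a family pull glucose in from the lumen with sodium, and facilitative carriers of the Slc2a family let it out on the blood side. Sodium-coupled monocarboxylate carriers of the Slc5a family take back lactate in the same way. Urate is moved in both directions, by Slc2a9 and by carriers of other families.

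Signals are given as log2 values relative to the 75th percentile of each array, so that a value of 0 is as bright as that percentile, and a difference of 1 is a doubling. Such values compare the same probe between kidneys and do not rank genes. All 14 probes entered the limma fit across 56097 probes, and a probe was called where its p before adjustment was under 0.05. The Benjamini-Hochberg adjusted p over all probes is given beside it. The unadjusted criterion is that of the study's methods. The share of probes well above background was 53.4% to 55.5% in WT and 51.8% to 53.1% in Selenbp1-KO kidneys, with no saturated spots. The 75th percentiles used for scaling were 519 to 751 in WT and 477 to 584 in Selenbp1-KO kidneys. Selenbp1 itself fell by 2.96 (SE 0.0976, limma adjusted p = 0.0021), from a mean of 7.04 in WT to 4.07 in Selenbp1-KO kidneys. Its probe was still well above background in all 3 knockouts. Proximal tubule markers, 5 of 5, were well above background on every array. The arrays of WT replicates 2 and 3 lay in 1 row of the slide, and those of WT replicate 4 and the 3 Selenbp1-KO kidneys in the other.

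Of the 14 probes, 1 was called, a probe of Slc2a3 that was higher in Selenbp1-KO kidneys, against 7.98% of all probes called (6.47% higher and 1.51% lower), and no member passed at an adjusted p under 0.05, against 0.00357% of all probes. The split of all calls depended on the scaling. With quantile normalization, which moved the median difference of all probes from 0.11 to 0.00, 4.50% of the probes were called higher and 3.87% lower. With the slide row as a block that median was 0.06. Differences in that fit are set by WT replicate 4 against the knockouts alone, so its calls are not given. Without WT replicate 4 the probes with an adjusted p under 0.05 went from 2 to 12522 of 56097, among them the second probe of Slc2a3, which was well above background on no array. Taking the brightest probe of each gene, 3 of the 10 differences were above 0 and 7 below, and their median was -0.05. Over all 36997 genes with a tested probe the median was 0.13, and over the 18365 genes well above background on every array it was 0.02. The brightest probes of 9 of the 10 carriers were well above background in every kidney, and the exception was Slc2a3. Groups did not overlap for 2 probes, 1 higher and 1 lower, against 13.3% of all probes (9.22% higher and 4.06% lower). Among the 18365 genes well above background on every array the shares were 12.7% higher and 6.51% lower.

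**Figure D1:**
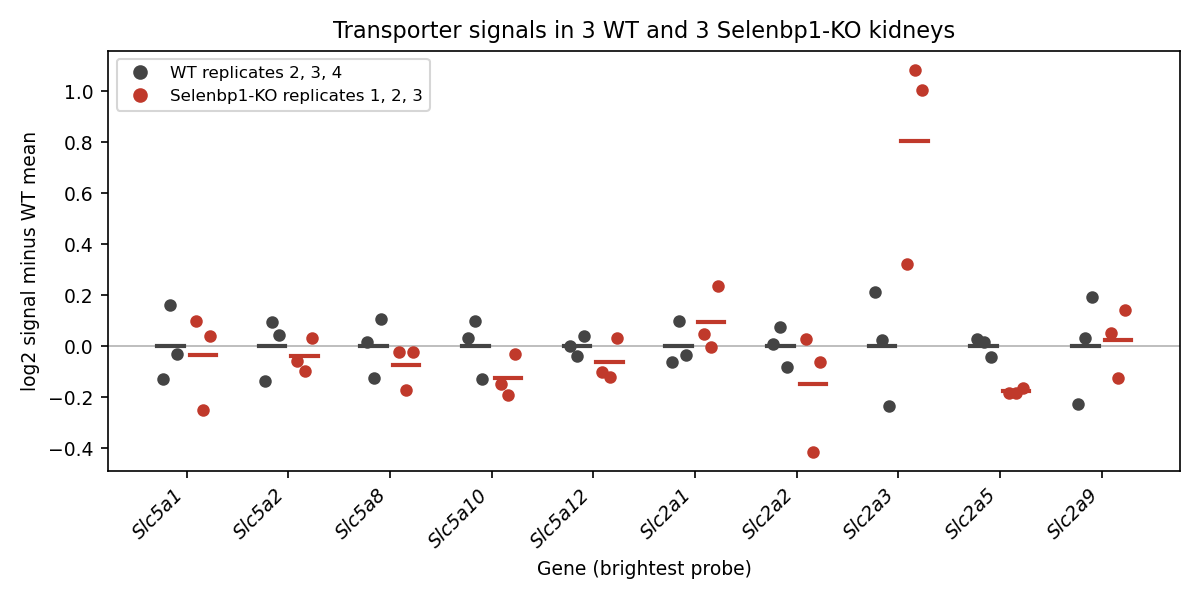
The log2 signal of the brightest probe of each of the 10 carriers is plotted for each kidney relative to the mean of the 3 WT kidneys, with horizontal bars for group means. WT and Selenbp1-KO points overlap for 8 genes, lie apart upward for Slc2a3 and lie apart downward by a small step for Slc2a5.

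Several genes carried more than 1 probe, and the sequences of the probes that cross an exon junction or separate the readings of Slc2a9 are shown because the results below differ between probes of the same gene. They are given 5′ to 3′ as in the scanner files, with positions on mm9. A 60-base probe whose listed position is much longer than the probe spans an intron. The Slc2a3 probe A_51_P384222 (chr6:122681586-122682419, minus strand), the Slc2a9 probe A_52_P335166 (chr5:38831985-38844371, minus strand) and the Slc5a2 probe A_66_P106294 (chr7:135412649-135413454, plus strand) are of this kind, as is the probe of Slc2a2 (chr3:28625253-28625961, plus strand), whereas the Slc2a9 probe A_66_P103342 (chr5:38808475-38808534, minus strand) reads an unbroken stretch.
Slc2a3 A_51_P384222: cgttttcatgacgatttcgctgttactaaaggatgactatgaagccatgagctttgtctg
Slc2a9 A_52_P335166: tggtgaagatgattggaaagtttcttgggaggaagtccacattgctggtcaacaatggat
Slc2a9 A_66_P103342: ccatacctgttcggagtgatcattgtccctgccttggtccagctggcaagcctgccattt
Slc5a2 A_66_P106294: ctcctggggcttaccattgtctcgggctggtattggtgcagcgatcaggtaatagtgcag
Slc2a2 A_52_P409988: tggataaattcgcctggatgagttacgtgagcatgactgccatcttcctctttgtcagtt

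Slc5a2 encodes SGLT2, the carrier that takes back most filtered glucose in the early proximal tubule, and neither of its probes was called. The brighter probe (A_55_P2007170, chr7:135415884-135415943) gave 6.06, 6.29 and 6.24 in WT kidneys and 6.14, 6.10 and 6.23 in Selenbp1-KO kidneys. The groups overlapped, with all 3 knockout values inside the WT range. The difference was -0.04 (SE 0.11; limma adjusted p = 0.886), and its 95% confidence interval allowed a fold between 0.808 and 1.17. The junction probe shown above gave 3.43, 3.49 and 3.40 in WT and 3.41, 3.20 and 3.51 in the knockouts, which differed by -0.06 (SE 0.119; adjusted p = 0.826). Here the lowest and the highest of the 6 values both came from knockout kidneys.

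Slc5a1 encodes SGLT1, which takes up the glucose left over in later tubule segments. Its probe (chr5:33504561-33504620) gave -0.82, -0.53 and -0.72 in WT and -0.59, -0.94 and -0.65 in Selenbp1-KO kidneys. The groups overlapped, and the lowest value was that of Selenbp1-KO replicate 2. The difference was -0.04 (SE 0.143; limma adjusted p = 0.92), with a fold between 0.764 and 1.24 inside the 95% interval, and it changed sign without WT replicate 3 (0.04) or without Selenbp1-KO replicate 2 (0.07).

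Slc5a10 encodes SGLT5, a sodium-coupled carrier of mannose and fructose in the kidney. Its signals (chr11:61486435-61486494, minus strand) were 6.15, 6.22 and 5.99 in WT and 5.97, 5.93 and 6.09 in Selenbp1-KO kidneys. Although 2 of the 3 knockout values were below every WT value, WT replicate 4 lay within the knockout range. The difference was -0.12 (SE 0.112; limma adjusted p = 0.615), with a 95% interval from -0.39 to 0.15. Between the arrays of the shared slide row, that is WT replicate 4 against the 3 knockouts, it was 0.00.

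Slc2a2 encodes GLUT2, the carrier that releases glucose from proximal tubule cells to the blood. Its signals were 1.51, 1.58 and 1.42 in WT and 1.53, 1.09 and 1.44 in Selenbp1-KO kidneys. Selenbp1-KO replicate 2 was the lowest of the 6, and the other knockout values lay within the WT range. The difference was -0.15 (SE 0.145; limma adjusted p = 0.638), and it was -0.02 without that kidney. Slc2a2 lies on the same chromosome as Selenbp1, and their probes are 66.1 Mb apart.

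Slc2a1 encodes GLUT1, a widely expressed glucose carrier that serves the later proximal tubule and more distal segments. Its probe (chr4:118809864-118809923) gave 2.26, 2.42 and 2.29 in WT and 2.37, 2.32 and 2.56 in Selenbp1-KO kidneys. The groups overlapped, and Selenbp1-KO replicate 3 was the highest of the 6. The difference was 0.09 (SE 0.115; limma adjusted p = 0.734), with a fold between 0.876 and 1.29 inside the 95% interval.

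Slc2a5 encodes GLUT5, the facilitative fructose carrier, and its values had the smallest SD of the 14 probes in both genotypes. Its probe (chr4:149517775-149517834) gave 4.77, 4.76 and 4.70 in WT kidneys, a mean of 4.74 ± 0.0359 (SD, n = 3), and 4.56, 4.56 and 4.58 in Selenbp1-KO kidneys, a mean of 4.57 ± 0.0164 (SD, n = 3). Every knockout value lay below every WT value, which 4.06% of all probes showed in this direction. Among genes well above background on every array, as this one was, the share was 6.51%. The difference was -0.18 (SE 0.0914), a fold of 0.885 and did not pass the test (limma adjusted p = 0.318), in which the spread of 1 probe is moderated towards that of all probes. The difference was below 0 in all 19 alternatives, from -0.25 to -0.13, but these are not separate checks of its sign. Those that change only the test or the filter cannot move it. The slide row as a block and the fit within the shared row give the same difference. An unadjusted p under 0.05 was found in 5 of the 19. Quantile normalization (-0.25) and the authors' processed values (-0.22) changed the difference. The methods' t-test without moderation, limma's trend and robust options and the filter on probes well above background left it at -0.18. The lowest adjusted p over the alternatives was 0.221.

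**Figure D2:**
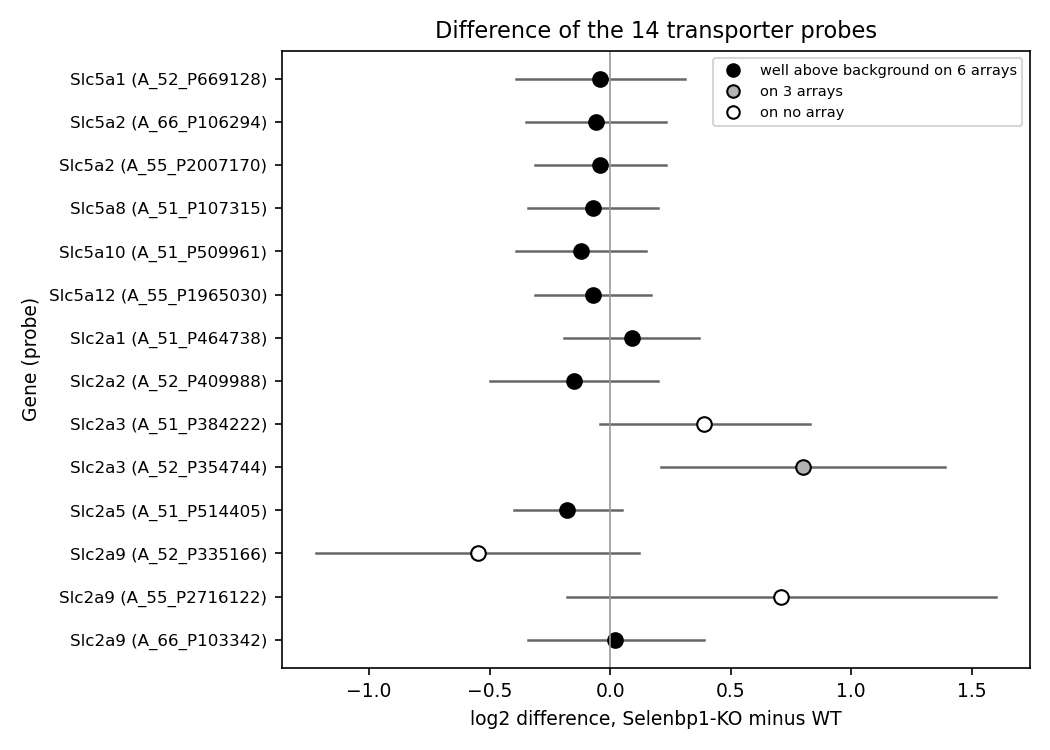
Points are the log2 differences of the 14 probes, Selenbp1-KO minus WT, with lines for 95% confidence intervals from limma and fill for the number of arrays on which the probe was well above background. The interval excludes 0 for 1 probe of Slc2a3, from 0.21 to 1.39, and the 3 widest intervals are those of dim probes.

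Slc5a8 (SMCT1) and Slc5a12 (SMCT2) are the sodium-coupled carriers that take lactate and other monocarboxylates back from the filtrate. Slc5a8 (chr10:88391888-88391947) gave 3.29, 3.15 and 3.38 in WT and 3.25, 3.10 and 3.25 in the knockouts, which differed by -0.07 (SE 0.112; limma adjusted p = 0.792). Slc5a12 (chr2:110487868-110487927) gave 4.66, 4.62 and 4.70 in WT and 4.56, 4.54 and 4.69 in the knockouts, which differed by -0.07 (SE 0.0983; adjusted p = 0.779). The groups overlapped for both genes, and Selenbp1-KO replicate 2 was the lowest of the 6 kidneys for each. The 95% intervals allowed a fold between 0.788 and 1.15 for Slc5a8 and between 0.809 and 1.13 for Slc5a12.

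Slc2a9 encodes GLUT9, the facilitative carrier through which urate leaves tubule cells, and only the brightest of its 3 probes gives a level. The brightest, A_66_P103342, was well above background in every kidney, at -2.56, -2.30 and -2.14 in WT and -2.28, -2.46 and -2.19 in Selenbp1-KO kidneys. All 3 knockout values lay within the WT range, and the difference was 0.02 (SE 0.149; limma adjusted p = 0.956). It turned to -0.17 with the slide row as a block or between the arrays of the shared row.

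The other Slc2a9 probes were not well above background in any kidney, so neither gives a level or a fold. The junction probe A_52_P335166 read -5.88, -5.49 and -5.72 in WT and -5.67, -6.38 and -6.68 in Selenbp1-KO kidneys (difference -0.55, SE 0.275). The probe A_55_P2716122 (chr5:38874231-38874290), listed under a transcript of its own, read -7.44, -7.54 and -7.00 in WT and -6.96, -5.82 and -7.07 in Selenbp1-KO kidneys (difference 0.71, SE 0.363). The groups overlapped on both probes, and the differences had opposite signs. Neither was called, and that of the junction probe became 0.16 with normexp background correction.

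Slc2a3 encodes GLUT3, a high-affinity glucose carrier best known from neurons and white blood cells, and it was the only one of the 10 carriers with a called probe. That probe, A_52_P354744 (chr6:122678075-122678134, minus strand), gave -4.88, -5.07 and -5.33 in WT kidneys, a mean of -5.09 ± 0.225 (SD, n = 3), and -4.77, -4.01 and -4.09 in Selenbp1-KO kidneys, a mean of -4.29 ± 0.422 (SD, n = 3). Selenbp1-KO replicates 2 and 3 stood above the rest, and Selenbp1-KO replicate 1 lay closest to the WT kidneys, so the groups were separated by a narrow gap. The difference was 0.80 (SE 0.242), a fold of 1.74, with a limma unadjusted p = 0.0159 and an adjusted p = 0.279. Slc2a3 was also picked by the study from these samples, so its direction here is not independent evidence.

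The called probe was near the limit of detection. It was well above background in WT replicate 2, Selenbp1-KO replicate 2 and Selenbp1-KO replicate 3 only, so its fold rests in part on spots whose level is uncertain. The call was lost without WT replicate 4 (0.68, limma adjusted p = 0.165), without Selenbp1-KO replicate 2 (0.66, adjusted p = 0.523) and without Selenbp1-KO replicate 3 (0.70, adjusted p = 0.291). With normexp background correction the difference was 0.40, and within the shared slide row it was 1.04. The difference stayed above 0 in all 18 alternatives that tested it, but those that change only the test or the filter cannot move it. The lowest limma adjusted p over the 18 was 0.113.

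The junction probe of Slc2a3, A_51_P384222, was not well above background in any kidney. It read -7.54, -7.64 and -7.10 in WT and -7.06, -6.87 and -7.18 in Selenbp1-KO kidneys, with WT replicate 4 among the knockout values. Its difference of 0.39 (SE 0.177) was not called. It was 0.01 with quantile normalization and 0.07 with the slide row as a block, and it was called, among others, with median scaling (0.38) and without WT replicate 4 (0.56, limma adjusted p = 0.049), with adjusted p between 0.049 and 0.917 over its 17 alternatives. Of all 24331 probes that were never well above background, 86.5% were higher in Selenbp1-KO kidneys, with a median difference of 0.38 that became 0.01 with quantile normalization. The 726 probes well above background on 3 of the 6 arrays had a median difference of -0.06, and 12.1% of them were called.

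**Figure D3:**
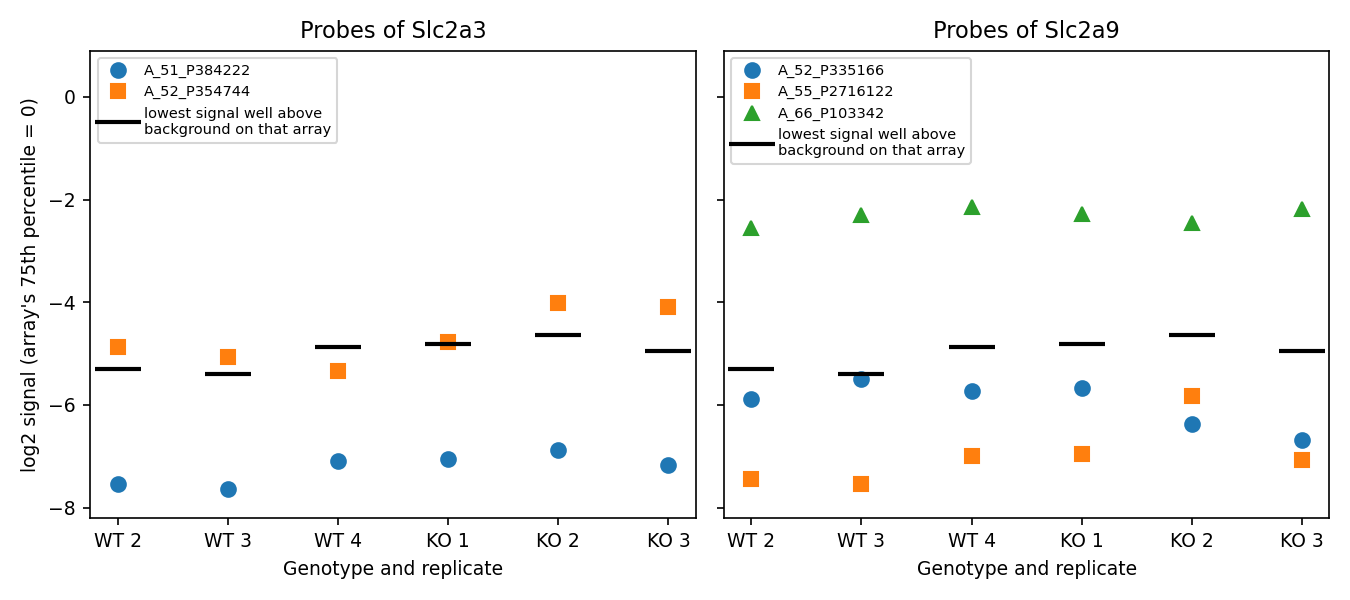
Log2 signals of the Slc2a3 probes (left) and Slc2a9 probes (right) are shown for each kidney, with a black bar for the lowest signal called well above background on that array. The called Slc2a3 probe lies close to the bars, between -5.33 and -4.01, while the brightest Slc2a9 probe lies well above them and the other probes below.

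Several marker lists of other cells were higher in Selenbp1-KO kidneys, where 6.87% of all genes were called higher, and a whole kidney does not tell more cells of a type from more RNA per cell. Macrophage markers were higher in Selenbp1-KO kidneys for 5 of 5 genes, of which Cd68 and C1qa were called, with summed signals (as multiples of the 75th percentile) of 10.1 to 11.9 in WT and 11.9 to 12.9 in Selenbp1-KO kidneys. Neutrophil markers were higher for 4 of 4, none called, with sums of 0.16 to 0.531 against 0.306 to 0.561, and Ngp and Cxcr2 were never well above background. Red blood cell markers were called for 3 of 4 genes (Hba-a1, Hbb-b1 and Alas2), with sums of 254 to 341 against 360 to 535. Fibroblast markers were called for 3 of 4 (Col1a1, Col3a1 and Dcn), with sums of 14.3 to 20.5 against 26.3 to 33.8. Fat markers were higher for 4 of 4, none called, with sums of 10.4 to 40.7 against 19.2 to 104. Lymphocyte markers had sums of 2.06 to 2.68 against 2.17 to 2.46, with Cd3e called, Ptprc at a difference of -0.16 and Cd79a never well above background. Proximal tubule markers, of which none of 5 was called, had sums of 389 to 454 in WT and 400 to 425 in Selenbp1-KO kidneys. Of the remaining lists, Pvalb of 5 loop and distal tubule markers and Synpo of 4 podocyte markers were called, and no marker of the proximal straight tubule (3), collecting duct (7), endothelium (4) or adrenal cortex (4), although the differences of the 3 proximal straight tubule and 4 adrenal cortex markers were also all above 0, as were those of 25305 of all 36997 genes. Some marker calls depended on the processing. Cd3e kept its call in 10 of 19 alternatives and was 0.13 with the slide row as a block, Col1a1 kept it in 11 and was 0.37 with that block, and Col3a1 kept it in 18 but was 0.17 with the mean of all its probes. Synpo kept its call in 10 and Hba-a1 in 11, whereas Cd68, C1qa, Pvalb, Alas2, Hbb-b1 and Dcn kept theirs in 16 to 19. The part of these cells in the Slc2a3 difference was not tested.

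Around the 10 carriers, 54 of 55 listed genes of sugar, lactate and urate handling had a tested probe, and 1 was called, against 8.00% of all genes. Groups did not overlap for 7 genes that were higher and 2 that were lower, against 10.2% and 3.88% of all genes (14.1% in both directions). Of the 54, 47 were well above background on every array. Among all such genes the shares were 12.7% and 6.51% (19.2% in both directions). Their differences were above 0 for 30 genes and below 0 for 24, with a median of 0.04 against 0.13 over all genes. The called gene was Slc22a12, which encodes URAT1, the apical exchanger that takes urate back from the filtrate. Its signals were 4.52, 4.67 and 4.87 in WT and 5.22, 4.92 and 5.08 in Selenbp1-KO kidneys, with every knockout value above every WT value. The difference was 0.38 (SE 0.142; limma unadjusted p = 0.0347, adjusted p = 0.279), a fold of 1.31. It was called in 11 of 19 alternatives and lost, among others, without WT replicate 2 (0.30), WT replicate 3 (0.38), Selenbp1-KO replicate 1 (0.31) or Selenbp1-KO replicate 3 (0.38), and with the slide row as a block (0.20), with adjusted p between 0.0664 and 0.917 over the alternatives.

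The other urate carriers gave 0 calls in 9 genes. Of all 10 urate carriers, 5 differences were above 0 and 5 below, with a median of 0.03. Slc22a7 (OAT2), an organic anion carrier, gave 5.41, 5.37 and 5.04 in WT and 5.62, 5.45 and 5.81 in Selenbp1-KO kidneys, without overlap, and a difference of 0.35 (limma adjusted p = 0.279). Abcc4, of the same list, was lower without overlap, at 2.31, 2.36 and 2.43 in WT and 2.09, 2.18 and 2.29 in Selenbp1-KO kidneys. Its difference was -0.18 (limma adjusted p = 0.38). Abcg2, a pump that secretes urate, differed by -0.03 (limma adjusted p = 0.905). Xdh, the enzyme that forms urate, differed by 0.04. Gda, of the list of urate formation and breakdown, was also lower without overlap, with a difference of -0.1 (limma adjusted p = 0.644).

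Among 12 genes of lactate and pyruvate transport and use, none was called. Ldha and Ldhb, the subunits of lactate dehydrogenase, differed by 0.09 and 0.04, and the monocarboxylate carrier Slc16a1 (MCT1) by 0.06. Mpc2, a subunit of the mitochondrial pyruvate carrier, gave 5.99, 6.10 and 6.20 in WT and 6.44, 6.28 and 6.35 in Selenbp1-KO kidneys, without overlap. Its difference of 0.26 did not pass the test (limma adjusted p = 0.279).

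No call was made among 13 other sugar carriers, 2 other Slc5a carriers, 8 partners and regulators of the sodium-glucose carriers and 5 genes of fructose and polyol handling. Pdzk1ip1, the accessory protein of SGLT2, differed by 0.06, and Hnf4a, a transcription factor of the proximal tubule, by -0.04. Slc2a4, the insulin-responsive carrier GLUT4, was 2.22, 2.23 and 2.10 in WT and 2.31, 2.34 and 2.31 in the knockouts, without overlap, and differed by 0.13 (limma adjusted p = 0.493). Khk, the kinase that starts fructose breakdown, differed by 0.12. Slc2a7, Slc5a4a, Slc5a4b and Slc5a5 were never well above background.

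**Figure D4:**
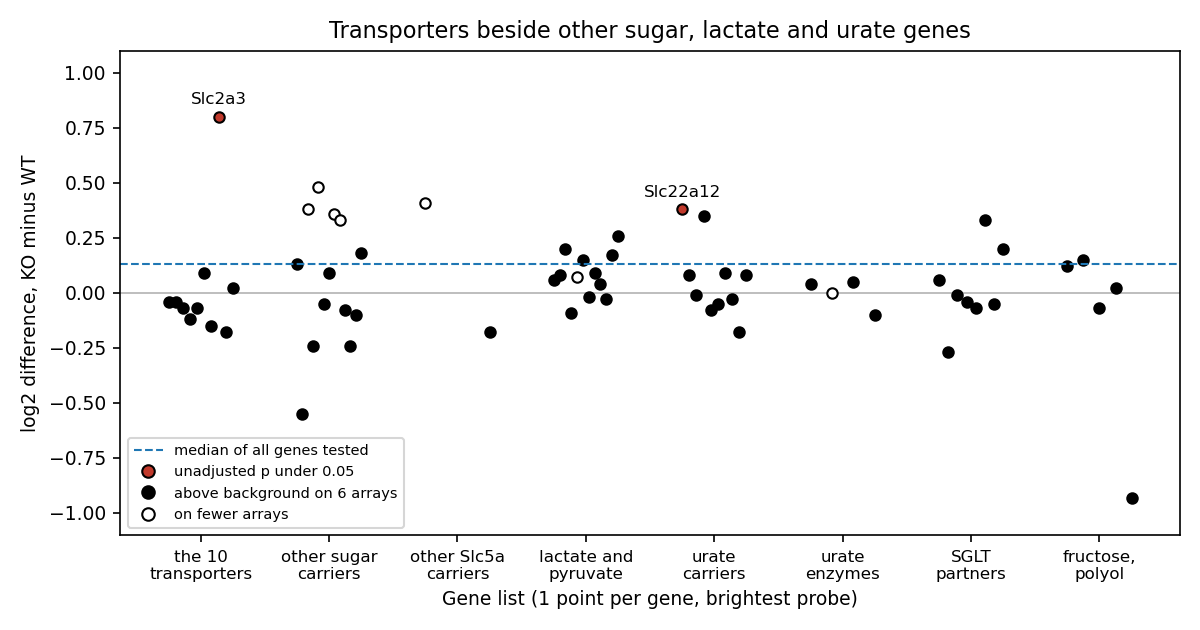
Each point is the log2 difference, Selenbp1-KO minus WT, of 1 gene's brightest probe, for the 10 carriers and for 7 related lists, with red fill for an unadjusted p under 0.05 and open symbols for probes well above background on fewer than 6 arrays. The called genes are Slc2a3 and Slc22a12, and the lowest point is Akr1b3 of the fructose and polyol list, at -0.93 and not called.

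Across the 6 kidneys, the gene whose profile was most like that of each carrier was found among 13609 candidates, for the 9 carriers whose brightest probe was well above background on every array, which leaves out Slc2a3. For Slc2a2 this was Nme7 (Pearson r = 0.9962), followed by Slc12a1, the sodium-potassium-chloride cotransporter of the loop of Henle (0.9956). For Slc5a10 it was Plin2, a lipid droplet coat protein (0.9937), and for Slc2a5 Rtel1 (0.9942). For Slc2a9 it was Timm17a (0.9931), for Slc5a12 Nbas (0.9919), for Slc5a1 Dusp18 (0.9908), for Slc5a8 Ecsit (0.9887), for Slc5a2 Tfcp2l1 (0.9868) and for Slc2a1 Ovol1 (0.9858). All candidates share the same 6 arrays and scaling, and with so many of them values of this size describe the profiles and carry no test.

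**Figure D5:**
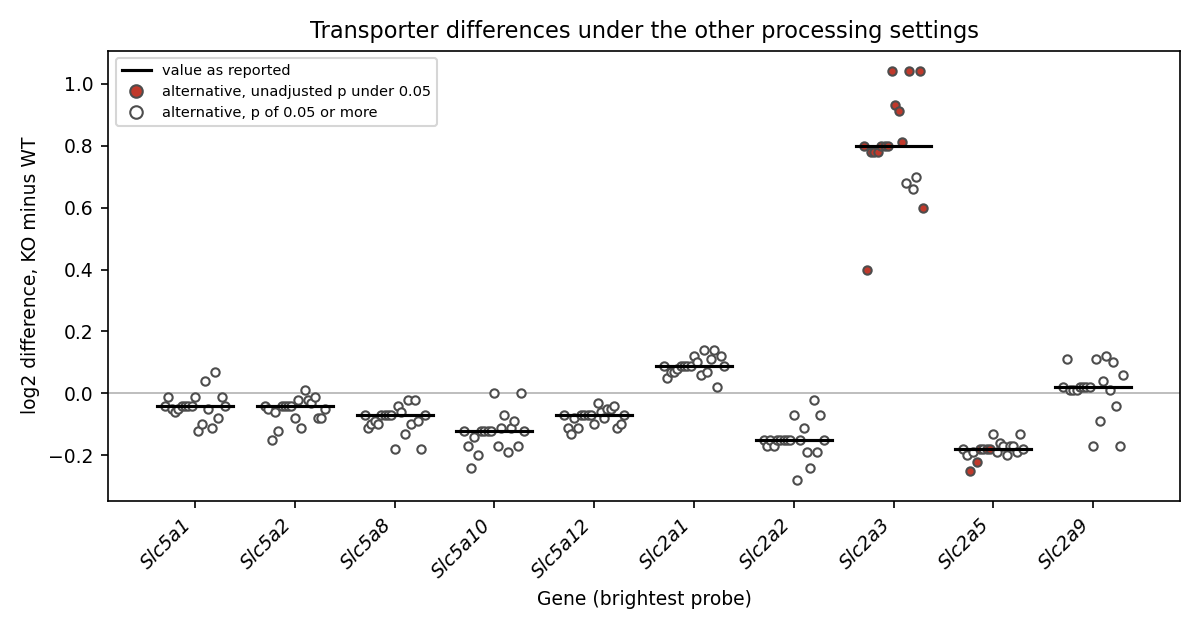
The log2 difference of each carrier's brightest probe is shown as reported (black line) and under each processing alternative (points), with red fill for an unadjusted p under 0.05. Apart from Slc2a3 and Slc2a5, the carriers reached that threshold in 0 of 152 alternatives.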

How the data were processed

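Per the labels, kidney RNA was labeled with Cy3 and hybridized to Agilent one-color mouse arrays. The deposited scanner files hold the authors' processed signal intensity for each spot (gProcessedSignal, background-subtracted by Feature Extraction) and the detection p-value of each spot. The file headers name Feature Extraction 10.7.1.1 and the submitters' processing notes 9.5.1.1. The authors' table of normalized linear intensity, taken to log2 here, was used as an alternative. Here each log2 intensity was taken relative to the 75th percentile of its array over non-control spots, outlier-flagged spots were dropped, spots of a probe were averaged, and a probe was kept if 1 or more of its 6 detection p-values fell under 0.05. WT and Selenbp1-KO were compared with limma 3.58.1 in R 4.3.3 (two-sided, moderated variance, Benjamini-Hochberg over all probes), a procedure tested on simulated data. An exact permutation test of 3 against 3 cannot give a p below 0.1. For lists, each gene was read by its brightest probe. Well above background was the scanner software's call. By rule, the genes named were the 10 members, the called genes of the related and marker lists, and the genes most correlated with each member; other related genes were chosen for their roles or after their values were seen. The members and lists were chosen with earlier results of these data known. The alternatives were background correction, scaling, filters, test, slide row, replicate block and leaving out each array; the number of arrays limits precision. Single values of some listed genes are not reported here.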

Additional observations from a re-analysis of the deposited data

How the results depend on the processing

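The median member difference was -0.12 to -0.02 over the alternatives, with its sign kept in each, though those that change only the test cannot move it. The count of called member probes, 1 as reported, was 2 with quantile normalization, with median scaling, with the authors' table and with the methods' t-test, and 3 with limma's trend and robust options. It stayed 1 when dim probes were filtered out, but that filter removed Slc2a3 and the called probe was then that of Slc2a5 (-0.18). Leaving out 1 array gave 0 to 2, with 0 without Selenbp1-KO replicate 2 or 3 and 2 without Selenbp1-KO replicate 1. In these fits, in that order, 2808, 3744 and 3232 of all 56097 probes were called. The count of called related genes, 1 as reported, was 5 with quantile normalization, against 9.11% of all genes. It was 3 with normexp, 5 with the authors' table and 2 with median scaling. It was 3 when dim probes were filtered out and with the methods' t-test, and 7 with trend and robust. Leaving out 1 array gave 0 (WT replicate 2, WT replicate 3 or Selenbp1-KO replicate 3) to 9 of 54 (WT replicate 4). Without WT replicate 4, 17585 of all 56097 probes were called. Of 56097 probes, 6261 were called with normexp, 4697 with quantile normalization, 4687 with the authors' table and 3978 with the methods' t-test. When dim probes were filtered out, 2841 of 28515 were called. The fit within slide row 2, chosen after seeing the data, has only WT replicate 4 for WT, so its counts are not given. With the slide row as a block the differences also rest on WT replicate 4 alone for WT, so those counts are not given either. Numbers 2 and 3 occur in both genotypes, and deviations correlated at 0.16 and 0.21 over only 2 such pairs. Between kidneys with different numbers the correlations ran from -0.36 to 0.25, so the pairing was not established. With the replicate block 4 member probes, Slc2a3 A_51_P384222 (0.57) among them, and 4 related genes were called. Over all probes, the 2 with an adjusted p under 0.05 became 183 with trend and robust and 12522 without WT replicate 4, and 4479 calls became 14616 with median scaling, 7536 with trend and robust, 18430 with the replicate block, 17585 without WT replicate 4, 2024 without WT replicate 2, 2627 without WT replicate 3 and, leaving out Selenbp1-KO replicate 2, 2808. Of the 10 brightest member probes, 6 had no alternative in the other direction, but several alternatives cannot change a difference. Signs turned for Slc5a10 (0.00 with the slide row as a block and within slide row 2), Slc2a9 A_66_P103342 (-0.17 in both, and -0.09 to 0.12 without 1 array), Slc2a9 A_52_P335166 (0.16 with normexp), Slc5a1 (-0.11 to 0.07 without 1 array) and both Slc5a2 probes (-0.11 to 0.01 for the brighter and -0.13 to 0.02 for the other without 1 array). The cause was not tested.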

Other observations

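Some related genes, chosen after their values were seen, varied more within a genotype than between genotypes. Akr1b3, the aldose reductase that makes sorbitol from glucose, was 5.93, 4.98 and 5.32 in WT kidneys and 3.80, 5.78 and 3.86 in Selenbp1-KO kidneys, so that Selenbp1-KO replicates 1 and 3 stood below the other 4 (difference -0.93, SD 0.482 and 1.12; limma adjusted p = 0.422). Uox, the enzyme that breaks down urate, was -4.11, -3.85 and -4.36 in WT kidneys and -6.91, -2.81 and -2.61 in Selenbp1-KO kidneys (limma adjusted p = 0.999). The lowest and the highest values both came from knockouts. The lowest, that of Selenbp1-KO replicate 1, was not well above background. It gives no level, and the spread among the knockouts rests in part on it.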
